A study of Mus musculus with 62 samples.

Results

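Subcutaneous adipose tissue (SAT, inguinal fat) of male mice fed a chow diet was compared between *Fam13a* KO and WT animals in 8 of the 62 RNA-seq libraries of the study. The 8 libraries were chosen by their labels for sex, diet, tissue and genotype, 4 from KO and 4 from WT mice, and all their titles end in the lane suffix 2. The KO mice carry a whole-body loss of *Fam13a* made from ES cells in which exon 5 was flanked by LoxP sites, and both genotypes were described as being on a C57BL6 background without a named substrain. The age of the chow-fed mice whose RNA was sequenced was not given in the sources used here. No source states whether WT mice were littermates or from which mouse each library came, so that p-values measure the spread between these libraries. For comparison, KO and WT libraries of SAT from males on a high-fat diet (HFD, 4 and 4), of visceral fat (VAT, gonadal) from males on chow (4 and 4) and of SAT from females on HFD (4 and 3) were used, described with the same KO line. The question addressed is which genes differ in SAT when *Fam13a* is lost and the animals are kept on chow.

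The study describes FAM13A, by sequence homology, as a protein with a GTPase-activating domain, and its gene lies at a locus associated with body fat distribution. Whether the mouse transcripts named below encode this domain was not examined here. Inguinal fat consists by volume mostly of adipocytes, which store triglyceride and release fatty acids, but it also holds vessels, fibroblasts and macrophages, borders on muscle and skin, and encloses the inguinal lymph node. How much of the node and of the neighboring muscle enters a dissected piece can differ, and such RNA is counted with that of the fat.

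The 8 libraries held between 9100628 and 26209382 counts on genes, with 10207600, 26209382, 23149077 and 18941956 in KO replicates 1 to 4 and 9100628, 10901189, 18251104 and 10640112 in WT replicates 1 to 4. Ribosomal RNA, counted on 4 loci and nearly all of it on *CT010467.1* (chromosome 17), took 18.5, 0.3197, 0.503 and 3.69% of the counts in KO replicates 1 to 4 and 23.1, 18.6, 0.806 and 15.1% in WT replicates 1 to 4. The share was high in 3 WT libraries and in KO replicate 1, and low in WT replicate 3, so that the genotypes overlapped. Outside these loci the libraries held between 6995666 and 26125594 counts.

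Markers of lymphocytes, which the inguinal node holds in number, did not separate the libraries by genotype alone. The mean log2 CPM of 19 B cell markers was -0.03, 0.86, 2.30 and 6.01 in KO replicates 1 to 4 and 6.47, 6.61, 6.63 and 5.11 in WT replicates 1 to 4. The mean of 23 T cell markers was -0.23, -0.36, 0.44 and 4.93 in KO and 4.97, 4.35, 4.95 and 2.52 in WT libraries. In both lists KO replicate 4 lay within the WT range and the 3 other KO libraries lay below every WT library. *Cd3e*, a chain of the T cell receptor complex, measured 2.05, 0.222, 0.397 and 17.1 CPM in KO and 20.2, 9.14, 21.6 and 4.29 CPM in WT libraries. It was thus expressed in KO replicate 4 at a level found in WT. *Cxcl13*, the follicular chemokine that attracts B cells, was lower in every KO library (4.83, 10.3, 24.0 and 47.9 CPM) than in any WT library (50.3, 79.4, 54.2 and 82.9 CPM), with KO replicate 4 nearest to WT. The chemokine *Ccl21a*, listed for lymph node stroma, had 0 counts in all 8 libraries and *Ccl19* was at or near 0. All 10 tested genes of that list had negative log2 fold changes (median -1.45), and none was called. The list score was -1.58, -1.53, -0.77 and 1.46 in KO replicates 1 to 4. In WT replicates 1 to 4 it was 1.51, 1.60, 1.29 and 0.70.

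The summed CPM of the 19 B cell markers ranged from 95.6 to 1653 in KO and from 953 to 2679.8 in WT libraries, and that of the 23 T cell markers from 23.9 to 879.9 in KO and from 248 to 1014 in WT libraries. All 42 were lower on average in KO (median log2 fold change -2.20 for B and -1.40 for T cells), and none was called. *Ighd*, which encodes the IgD heavy chain of naive B cells, gave 1.69, 2.26, 11.7 and 139.9 CPM in KO and 234, 266, 276 and 96.0 CPM in WT. KO replicate 4 lay between WT replicate 4 and the other WT libraries, and the 3 other KO libraries lay below. *Ighm* and *Il7r* had log2 fold changes of -1.47 and -1.50, with adjusted p = 0.1805 and 0.305. Fewer cells of a type and less RNA per cell cannot be told apart in bulk tissue. Without KO replicate 4, all 42 markers were called lower in KO, as were 24.7% of all genes.

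Skeletal muscle markers stood out in KO replicate 1. Their mean log2 CPM was 8.09, 3.44, 1.40 and 2.31 in KO replicates 1 to 4 and 2.66, 2.06, 3.51 and 0.96 in WT replicates 1 to 4. *Myh4*, a fast myosin heavy chain, measured 12548, 233, 43.4 and 74.8 CPM in KO and 165, 58.97, 124 and 17.2 CPM in WT libraries, and *Acta1*, skeletal muscle actin, 2498, 433, 80.3 and 32.3 CPM in KO and 49.6, 48.4, 59.1 and 27.1 CPM in WT. The median log2 fold change of the 16 tested muscle markers was 4.53 with all libraries and 0.29 without KO replicate 1.

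**Figure D1:**
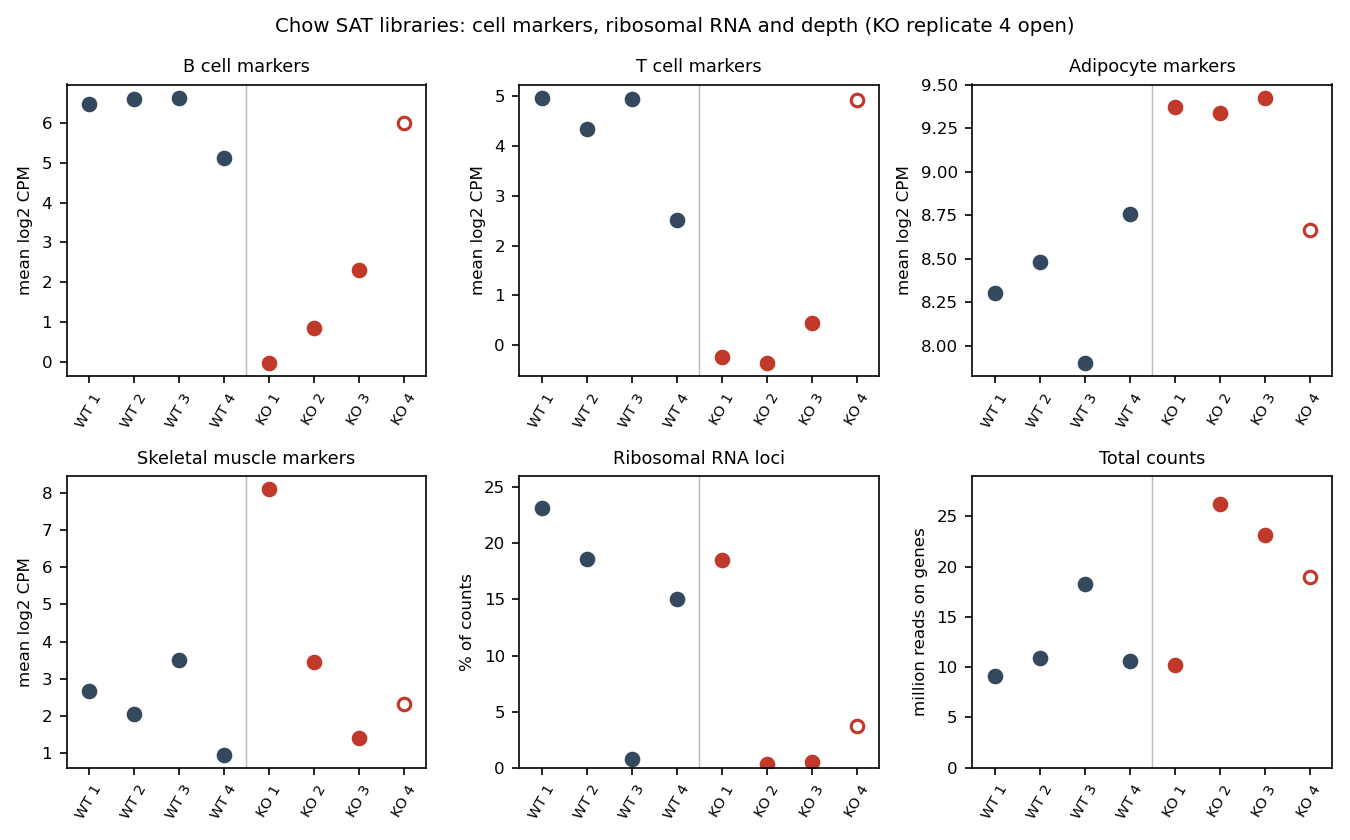
Each point is 1 chow SAT library. The upper row and lower left panel give the mean log2 CPM of B cell, T cell, adipocyte and skeletal muscle markers, the other panels the percentage of counts on ribosomal RNA loci and the total counts. KO replicate 4 (open) lies with the WT libraries for B and T cell markers, KO replicate 1 has the highest muscle score (8.09), and high ribosomal RNA shares occur in both genotypes.

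*Fam13a* itself was lower in every KO library. It measured 220.3, 99.8, 164 and 162 CPM in KO replicates 1 to 4 and 314, 344, 271 and 351 CPM in WT replicates 1 to 4, means of 161 ± 49.2 and 320.2 ± 36.2 (SD, n = 4 each). The groups did not overlap, and the log2 fold change was -0.99 (SE 0.23). An exact two-sided permutation test on log2 CPM gave p = 0.0286, the smallest value that 4 against 4 libraries allow. In edgeR's quasi-likelihood test over all genes the unadjusted p was 0.00209 and the adjusted p 0.146, which misses the FDR of 10% used in the study. KO replicate 4 (162 CPM) was as low as KO replicate 3 (164 CPM), and the target was thus lower in all 4 libraries labelled KO. In SAT of males on HFD, *Fam13a* was also lower in every KO library (log2 fold change -0.80, adjusted p = 0.0791), and the fold changes on chow and HFD were not distinguished (difference -0.20, adjusted p = 0.742). The genotypes overlapped in chow VAT, with 39.5 to 285.4 CPM in KO and 252 to 754 CPM in WT libraries (scaled over all 62 libraries). They also overlapped in SAT of females on HFD, with 29.4 to 119.2 CPM in KO and 83.2 to 119.1 CPM in WT on that scale.

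The gene lies on the minus strand of chromosome 6 (GRCm38 positions 58932090 to 59024549). In GENCODE M21 the exon numbered 5 is the same in both coding transcripts, *Fam13a*-201 and *Fam13a*-202, at chr6:58983889-58984075, coding throughout, with 187 bases, which is not a multiple of 3. It is printed because it is the part named as floxed, in transcript orientation and lower case, although the transcript on which the study numbered its exons was not given in the sources used here.
Fam13a exon 5: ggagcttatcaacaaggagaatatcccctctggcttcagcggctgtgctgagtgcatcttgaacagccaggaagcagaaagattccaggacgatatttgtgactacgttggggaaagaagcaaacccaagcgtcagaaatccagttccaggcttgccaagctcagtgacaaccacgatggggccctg
Joining exon 4 to exon 6 of *Fam13a*-201 shifts the reading frame, and the first stop then follows after 44 codons, for a frame of 140 codons against 693 with all 18 exons. The deposited counts sum over all exons of a gene, and reads on exon 5 were not analysed here.

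Of 15636 genes tested, 3 (0.0192%) were called at an FDR of 10%, and all were higher in KO. A further view without a model is given by the genes whose libraries did not overlap: in 951 (6.08%) every KO library was above every WT library, and in 671 (4.29%) every KO library was below. At an unadjusted p under 0.05, 2382 genes (15.2%) were higher and 1798 (11.5%) lower in KO, and the median log2 fold change of all genes was 0.00. The count of called genes rested on KO replicate 4, the library with lymphocyte markers at WT level. Without it 7122 of 15241 genes (46.7%) were called, 3364 higher (22.1%) and 3758 lower (24.7%) in KO. Without KO replicate 1 it was 2, and without KO replicate 2 or 3, or any 1 of WT replicates 1 to 4, it was 0. DESeq2 called 3054 genes on the same 8 libraries, 1773 of them higher in KO.

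Fitting all 16 male SAT libraries of both diets, which estimates the spread from 4 groups, called 5378 of 17292 genes (31.1%) in chow SAT. Adding the lymphocyte marker score (mean log2 CPM of the B and T cell markers) as a covariate left 9 (0.052%). Scaled over all 62 libraries, this score spanned -0.44 to 5.16 in KO and 3.41 to 5.49 in WT on chow. On HFD it spanned -0.03 to 0.42 in KO and -0.18 to 3.75 in WT males. Both fits pool the spread of these unlike groups, and whether the pooled value suits chow KO libraries was not tested. In the 8 libraries alone, this covariate left 1 called gene (0.0064%), and the genes with an unadjusted p under 0.05 went from 4180 (26.7%) to 575 (3.68%). The score was -0.14, 0.19 and 1.28 in KO replicates 1 to 3 and 3.69 to 5.71 in WT libraries. In the 8 libraries genotype and score were thus told apart mainly by KO replicate 4. The same limit holds for the list medians given with this score. With the ribosomal RNA share as a covariate no gene was called in edgeR, and 2680 genes (17.1%) had an unadjusted p under 0.05. Leaving the ribosomal RNA loci out of the table gave 3 called genes as before. The ribosomal RNA share and the lymphocyte score were both high in WT replicates 1, 2 and 4 and both low in KO replicates 2 and 3. In the other libraries they differed. KO replicate 1 had a share of 18.5% and a lymphocyte score of -0.14, WT replicate 3 a share of 0.806% and a score of 5.71, and KO replicate 4 a share of 3.69% and a score of 5.42.

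**Figure D2:**
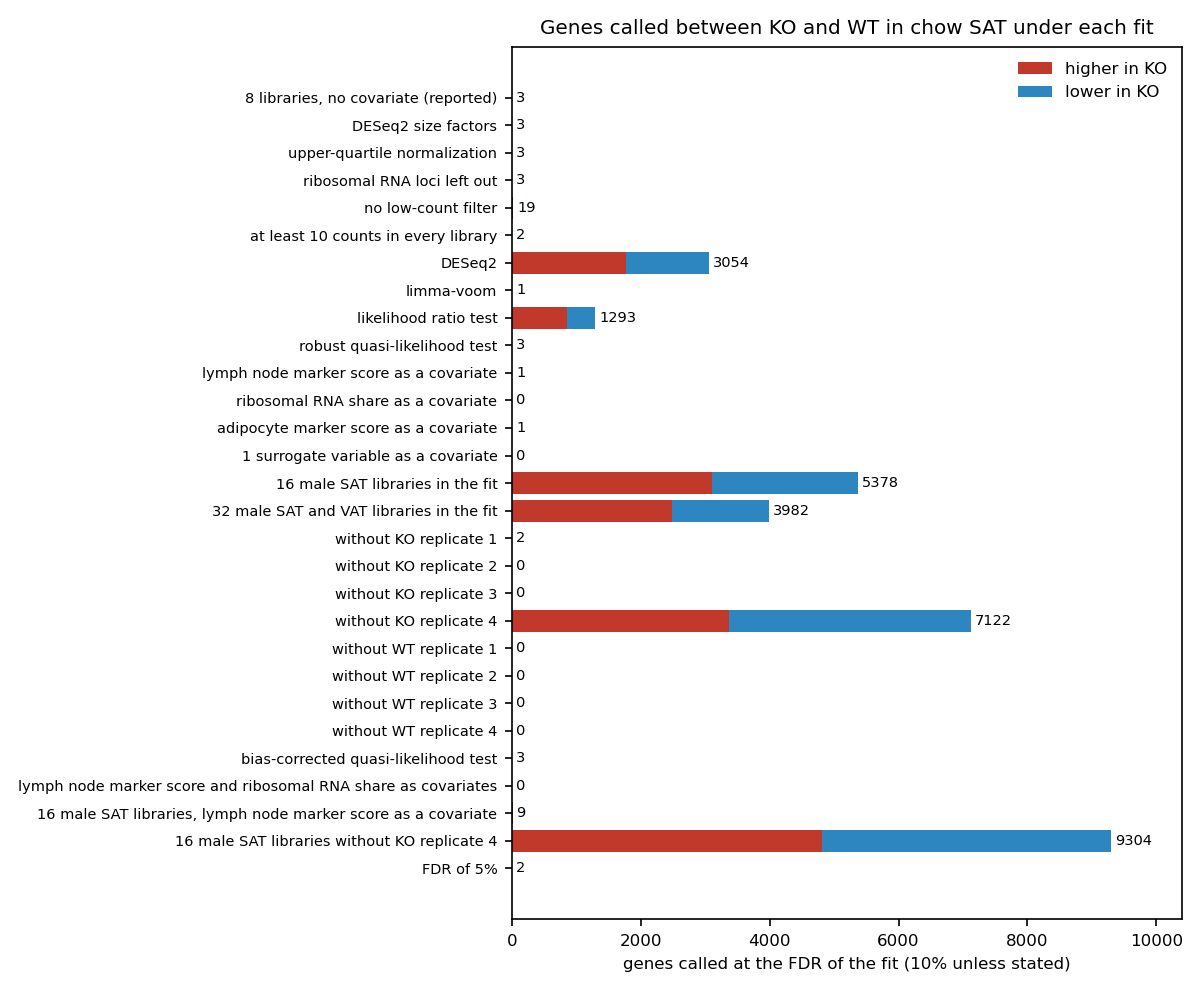
Each bar counts the genes called between KO and WT in chow SAT under 1 fit, in red those higher and in blue those lower in KO. The 8 libraries without covariate give 3, leaving out KO replicate 4 gives 7122, and the 16 male SAT libraries give 5378 without and 9 with the lymphocyte marker score.

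The gene with the smallest p-value was *Gm28438*, an unprocessed pseudogene (chr1:24612775-24613119, minus strand). It measured 4.11, 3.29, 2.94 and 3.74 CPM in KO replicates 1 to 4 and 0, 0, 0.0854 and 0.102 CPM in WT replicates 1 to 4, with 271 reads in KO and 3 in WT libraries. Relative to the counts in all, KO libraries held 58.4 times as many reads, with a 95% interval of 19.8 to 285 that covers counting error only (log2 fold change 5.79, SE 0.52, adjusted p = 0.0319). It was at this level in every KO library whatever its lymphocyte, muscle or ribosomal RNA content, and it was the gene called with the lymphocyte marker score as a covariate (5.78, adjusted p = 0.0379).

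*Gm28438* differs from the mitochondrial gene *mt-Nd3* (chrM:9459-9806, plus strand), which encodes a subunit of respiratory complex I, at 1 of 345 compared bases (99.71% identity). The substitution, with the base of *mt-Nd3* first and counted from 1 at the 5′ end, is T3C. The first 30 bases of both are shown, from GENCODE M21 transcripts, with the differing base in capitals.
Gm28438: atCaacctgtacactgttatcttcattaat
mt-Nd3: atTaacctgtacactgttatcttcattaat
With such a copy the assignment of single reads to either locus is uncertain, and a difference on *Gm28438* cannot be told apart from a difference in the reads of *mt-Nd3*. The table gives *mt-Nd3* 0 counts in all 4 KO libraries and between 0 and 2 counts in WT libraries.

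*Gm28438* was also above 1 CPM in the other KO libraries, apart from males on HFD. In VAT and liver of KO males on chow it measured between 1.29 and 2.63 and between 1.797 and 2.31 CPM, and in SAT and VAT of KO females on HFD between 1.26 and 2.04 and between 1.29 and 1.72 CPM. In all WT groups the highest value was 0.283 CPM. In KO males on HFD it was at most 0.131 CPM in SAT, 0.0303 in VAT and 0.1703 in liver. The log2 fold change between KO and WT libraries differed between chow and HFD in male SAT by 5.62 (SE 0.78, adjusted p = 0.0366 for the interaction term in edgeR). KO females on HFD were above 1 CPM, but the study has no libraries of females on chow to set beside them. The cause of the difference in males was not tested.

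**Figure D3:**
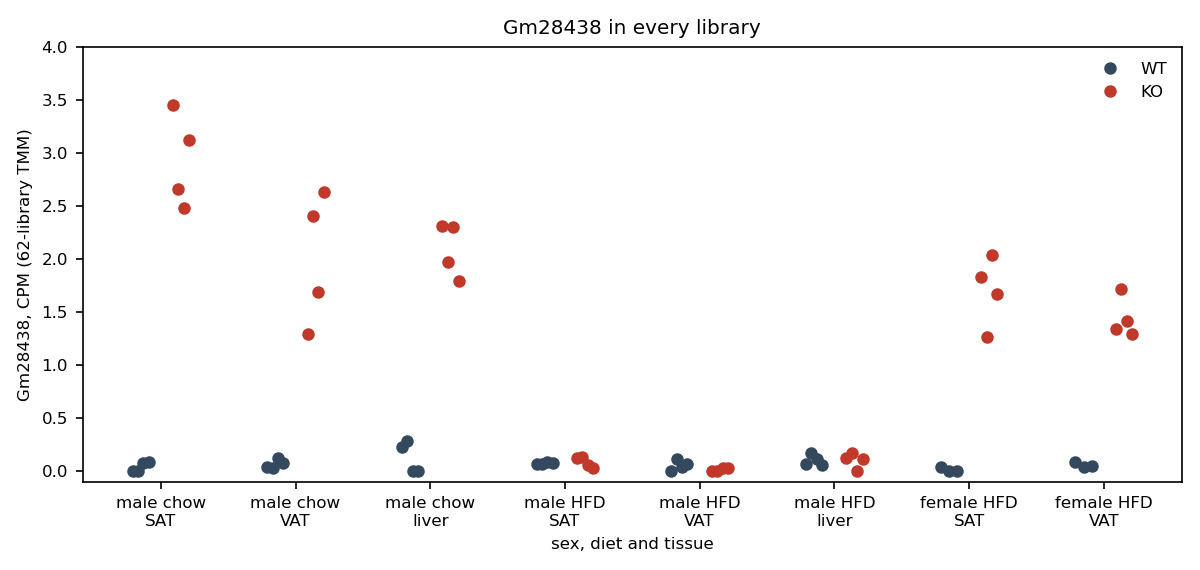
Each point is the CPM of *Gm28438* in 1 of the 62 libraries, scaled by TMM over all libraries, WT in dark blue and KO in red, by sex, diet and tissue. KO libraries of males on chow and of females on HFD lie at or above 1.26 CPM, and all WT libraries and KO males on HFD lie at or below 0.283 CPM.

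*Aldh3b2* (chromosome 19, 3972328 to 3981646, plus strand), an aldehyde dehydrogenase that acts on aldehydes derived from lipids, was the second called gene. It measured 8.22, 15.8, 14.4 and 10.7 CPM in KO and 2.104, 2.46, 1.54 and 1.74 CPM in WT libraries (log2 fold change 2.67, SE 0.26, adjusted p = 0.0366). The lowest KO library lay above the highest WT library by a wide margin, and KO replicate 4 lay among the other KO libraries. The fold change was 2.58 with the lymphocyte marker score as a covariate (adjusted p = 0.149). In male SAT on HFD it was 0.44 (adjusted p = 0.238), and the difference between chow and HFD was 2.22 (SE 0.32, adjusted p = 0.0366). WT levels on HFD, between 5.25 and 6.86 CPM, were above those of WT on chow (1.32 to 2.02 CPM on the same scale) and overlapped those of KO on HFD (6.11 to 10.3 CPM).

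*Chrna2* (chromosome 14, 66135039 to 66152948, plus strand), a nicotinic acetylcholine receptor subunit known from beige adipocytes, was the third. It measured 10.03, 7.58, 9.08 and 6.06 CPM in KO and 2.104, 1.97, 2.09 and 1.33 CPM in WT libraries (log2 fold change 2.11, SE 0.23, adjusted p = 0.0579). The genotypes did not overlap, and KO replicate 4 was the lowest of the KO libraries. With the lymphocyte marker score as a covariate the fold change was 1.84 (adjusted p = 0.496), and in SAT on HFD 0.76 (adjusted p = 0.208).

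Next by p-value came *Gm45716*, *Rab4a*, *Inhbb*, *Mecr*, *Slc16a12*, *Idh1* and *Cd38*. *Gys2*, *Irs3* and *Myef2* followed among others and were, like these, named after their values were seen. All had an adjusted p of 0.146 and none was called. *Gys2*, the glycogen synthase of liver and fat, measured 13.4, 13.9, 24.4 and 13.9 CPM in KO and 5.85, 2.95, 1.92 and 3.68 CPM in WT libraries. *Inhbb*, the activin B subunit expressed in adipocytes, measured 20.8, 21.8, 20.6 and 15.05 CPM in KO and 9.002, 7.76, 4.78 and 6.44 CPM in WT. *Irs3*, an insulin receptor substrate found in rodent fat, measured 34.4, 54.6, 39.1 and 23.1 CPM in KO and 10.99, 11.99, 6.87 and 13.9 CPM in WT. All KO libraries were above all WT libraries for these 3 genes. *Mecr*, an enzyme of mitochondrial fatty acid synthesis, *Idh1*, the cytosolic isocitrate dehydrogenase, and *Rab4a*, a GTPase of endosome recycling, had log2 fold changes of 1.11, 0.90 and 1.73. *Slc16a12*, a creatine transporter of the monocarboxylate transporter family, and the unnamed gene *Gm45716* had 1.38 and 1.59.

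*Cd38*, an enzyme that consumes NAD+, was lower in KO, with 20.5, 22.3, 23.6 and 36.4 CPM in KO and 56.1, 57.2, 67.9 and 60.5 CPM in WT libraries (log2 fold change -1.23, SE 0.19). KO replicate 4 was the highest KO library and still below every WT library. *Cd38* is also made by lymphocytes, and with the lymphocyte marker score as a covariate the fold change was -0.84 (adjusted p = 0.784) in 8 and -0.84 (adjusted p = 0.0459) in 16 male SAT libraries. *Myef2*, an RNA-binding repressor, had KO libraries close together, with 18.4, 16.8, 18.3 and 18.6 CPM in KO and 26.9, 28.2, 28.8 and 25.8 CPM in WT (log2 fold change -0.61). Genes on the opposite strand overlap *Fam13a*, *Cd38*, *Myef2*, *Slc7a10*, *Agpat2* and *Mgll*, and the strand setting of the counting was not given in the sources used here. The KO effect on *Myef2* differed between chow and HFD by -0.74 (SE 0.12, adjusted p = 0.0846), the value on HFD being 0.12.

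The 9 genes called in 16 male SAT libraries with the lymphocyte marker score were *Gm28438*, *Aldh3b2*, *Chrna2*, *Gm45716*, *Gm16235*, *Gys2*, *Slc16a12* and *Morc4*, which were higher (0.0463% of genes tested), and *Cd38*, which was lower (0.00578%) in KO on chow. *Gys2* had a log2 fold change of 2.23 (adjusted p = 0.0739) and *Slc16a12* of 1.28 (adjusted p = 0.0739) in that fit. Both were also called higher in KO in the male SAT libraries on HFD, a separate set of animals, with 1.17 and 0.83 (adjusted p = 0.0563 and 0.0563).

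**Figure D4:**
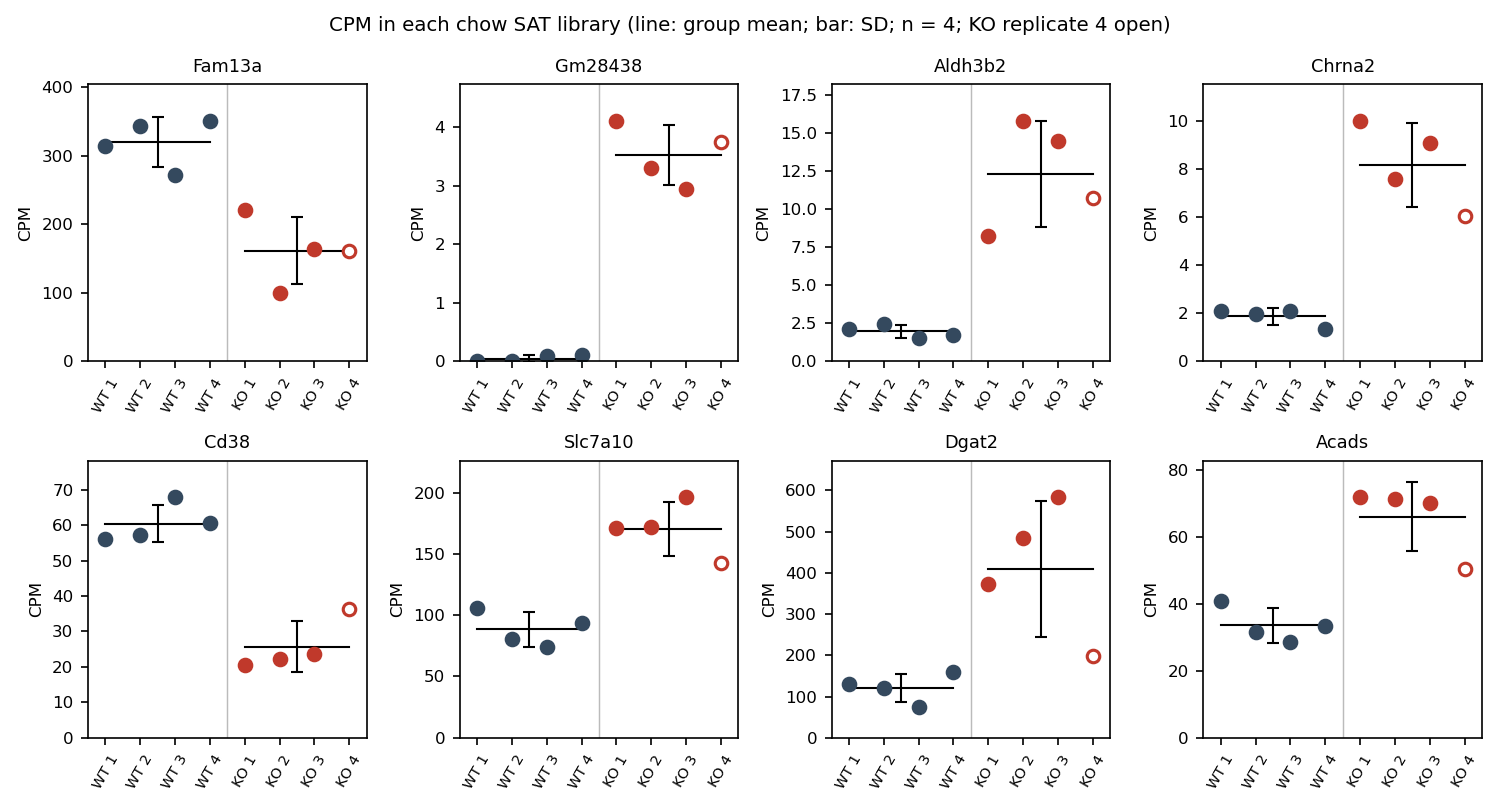
Each panel gives the CPM of 1 gene in the 4 WT and 4 KO chow SAT libraries, with the group mean (line) and SD (bar), and KO replicate 4 as an open circle. For all 8 genes the KO and WT libraries do not overlap, with *Fam13a* and *Cd38* lower and the others higher in KO.

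The 49 lists of genes included several of fat metabolism that held many members whose KO libraries all lay above WT. No member of any metabolic list was called at the FDR of 10% with all 8 libraries. Of 26 adipocyte markers, 25 had a positive log2 fold change (median 0.74, 0.00 for all genes), 4 (15.4%, against 6.08% of all genes) had all KO libraries above all WT, and 20 were called higher without KO replicate 4 (22.1% of all genes). The marker score was 9.37, 9.34, 9.43 and 8.67 in KO replicates 1 to 4 and 8.31, 8.48, 7.90 and 8.76 in WT replicates 1 to 4, so that KO replicate 4 lay within the WT range. *Fabp4*, the fatty acid carrier of adipocytes, measured 7291, 7566, 8038 and 5043 CPM in KO and 3309.6, 3540.0, 2718 and 4828 CPM in WT. *Car3*, a carbonic anhydrase abundant in fat, had a log2 fold change of 0.74 (adjusted p = 0.1603). With the lymphocyte marker score as a covariate the median of the list was 0.23.

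Mitochondrial fatty acid oxidation was represented by 30 tested genes. All KO libraries were above all WT libraries in 13 of them (43.3%) and below in 0, and 21 had an unadjusted p under 0.05 with a higher value in KO (15.2% of all genes). The median log2 fold change was 0.63, and 0.30 with the lymphocyte marker score. *Acads*, the short-chain acyl-CoA dehydrogenase, measured 71.9, 71.3, 70.2 and 50.5 CPM in KO and 40.8, 31.5, 28.6 and 33.5 CPM in WT libraries. *Acadm*, the medium-chain enzyme, measured 365, 355, 316 and 216 CPM in KO and 129, 142, 101 and 188 CPM in WT. For both genes KO replicate 4 was the lowest KO library and above all WT libraries. *Hadha*, the trifunctional protein subunit, had a log2 fold change of 0.55. The member with the highest mean CPM, *Acsl1*, which activates fatty acids, overlapped between genotypes (0.56, adjusted p = 0.3104).

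In the TCA cycle list 25 of 25 log2 fold changes were positive, with a median of 0.52, and 8 (32%) had all KO libraries above WT. *Pcx*, pyruvate carboxylase, measured 467, 529, 658 and 513 CPM in KO and 409, 288, 256 and 431 CPM in WT, and *Sdha*, a subunit of succinate dehydrogenase, had 0.35 (adjusted p = 0.252). Of 80 nuclear genes of the respiratory chain all were positive (median 0.55), 11 (13.8%, against 6.08% of all genes) had all KO libraries above WT and 64 were called higher without KO replicate 4 (22.1% of all genes). *Atp5b* and *Atp5a1*, the beta and alpha subunits of ATP synthase, had log2 fold changes of 0.86 and 0.73. By contrast, the 7 tested genes encoded by mitochondrial DNA had a median of 0.05, and none had an unadjusted p under 0.05 in edgeR. Mitochondrial ribosomal proteins (74 genes) had a median of 0.25, with 11 (14.9%) above WT in every KO library. The medians with the lymphocyte marker score were 0.19 for the TCA cycle, 0.10 for the respiratory chain and 0.07 for mitochondrial ribosomal proteins.

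Glycolysis and lactate genes had a median of 1.0 over 19 genes, and 9 of them (47.4%) had all KO libraries above WT. *Pfkfb3*, which makes the activator of phosphofructokinase, had a log2 fold change of 1.01. *Aldoa*, aldolase A, measured 2109, 544, 456 and 305 CPM in KO and 271, 240.1, 235 and 271 CPM in WT libraries. KO replicate 1, the library with muscle markers, stood above the others for this gene. *Slc16a1*, a lactate transporter, measured 140.2, 167, 189 and 79.6 CPM in KO and 44.7, 60.05, 38.1 and 66.9 CPM in WT. Without KO replicate 1 the median of the list was 0.74, and 9 genes still had all 3 KO libraries above WT. *Cox7a1*, a subunit of cytochrome oxidase in muscle and brown fat, was likewise set apart in KO replicate 1, with 15.1, 2.15, 1.86 and 0.909 CPM in KO and 0.351, 0.491, 0.726 and 0.818 CPM in WT.

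Entered as a covariate, the adipocyte marker score brought the medians to 0.03 for fatty acid oxidation, 0.01 for the TCA cycle, -0.07 for the respiratory chain and 0.28 for glycolysis. With the ribosomal RNA share as a covariate these medians were 0.70, 0.63, 0.62 and 1.10, and that of adipocyte markers was 0.795. Among KO libraries only KO replicate 4 had an adipocyte score within the WT range, so that genotype and this score were also told apart mainly by that library.

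Triglyceride synthesis genes (15) had a median of 0.61 and 5 (33.3%) with all KO libraries above WT. The median was 0.25 with the lymphocyte and 0.12 with the adipocyte marker score. *Dgat2*, which adds the last fatty acid, measured 374, 485, 584 and 198 CPM in KO and 129, 119.7, 74.8 and 159 CPM in WT libraries. *Agpat2*, an acyltransferase whose loss causes lipodystrophy, measured 212, 163, 395 and 135 CPM in KO and 66.1, 59.2, 53.03 and 119.5 CPM in WT. *Lpin1*, the phosphatidate phosphatase, had a log2 fold change of 0.89 (adjusted p = 0.149) and overlapped between genotypes. *Mgll*, the monoglyceride lipase of the opposite pathway, measured 723, 1004, 711 and 432 CPM in KO and 298, 257, 191 and 312 CPM in WT, whereas *Lipe*, hormone-sensitive lipase, overlapped in KO replicate 4 (1209, 1224, 1283 and 613 CPM in KO, 553, 598, 427 and 787 CPM in WT). De novo lipogenesis genes (17) had a median of 0.25. Their most abundant members, the desaturase *Scd1* and the fatty acid synthase *Fasn*, overlapped (0.56 and 0.48, adjusted p = 0.288 and 0.452).

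Genes that mark expanding fat lay highest in KO replicates 1 to 3. *Npr3*, the natriuretic peptide clearance receptor, measured 868, 2284, 542 and 232 CPM in KO and 227, 354, 113 and 164 CPM in WT libraries. *Cav1*, the caveolar coat protein, measured 1094, 2235, 856 and 577 CPM in KO and 421, 484, 308 and 413 CPM in WT. KO replicate 2 was highest for both, and KO replicate 4 lay within the WT range for *Npr3*. The list of 6 genes had a median of 1.63, and -0.16 with the lymphocyte marker score. In the list of thermogenic and beige fat, *Clstn3* measured 28.6, 8.69, 51.8 and 28.1 CPM in KO and 10.3, 7.86, 9.44 and 15.2 CPM in WT libraries, overlapping between genotypes. Counts on this gene do not separate its fat-specific isoform. In the list of insulin signaling 2 of 19 genes (10.5%) were above WT in every KO library.

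Of the genes that the study named for fat biology, 2 of 6 did not overlap, *Agpat2* and *Slc7a10*. They were chosen by the study on libraries that include these 8. *Slc7a10*, a neutral amino acid transporter of adipocytes, measured 171, 172, 196 and 143 CPM in KO and 106, 80.3, 73.7 and 93.5 CPM in WT. The log2 fold changes of the 4 others were 1.06 for *Klf14*, 0.39 for *Fgfr2*, 0.06 for *Vegfa* and -0.57 for *Celsr2*, with adjusted p from 0.178 to 0.907.

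Outside metabolism, the proteasome held many genes that separated. Of 37 genes, 13 (35.1%) had all KO libraries above WT, with a median log2 fold change of 0.35, which was 0.10 with the lymphocyte and 0.07 with the adipocyte marker score. *Psmd2* and *Psmd1*, scaffold subunits of the regulatory particle, had 0.49 and 0.48 (adjusted p = 0.146 and 0.146). *Psmd6* measured 55.6, 40.8, 38.3 and 37.1 CPM in KO and 26.9, 27.6, 28.7 and 28.8 CPM in WT libraries. *Psmb10*, a catalytic subunit of the immunoproteasome of lymphoid cells, was the 1 gene below WT in every KO library, with 11.5, 15.3, 14.1 and 20.1 CPM in KO and 23.03, 24.96, 23.7 and 21.5 CPM in WT.

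Cytosolic ribosomal proteins were lower on average in KO, 74 of 77 genes with a median of -0.46. All KO libraries were below WT in 6 (7.79%, against 4.29% of all genes), and 68 were called lower without KO replicate 4 (24.7% of all genes). *Rpl4* measured 309, 293, 296 and 436 CPM in KO and 424, 485, 455 and 429 CPM in WT, KO replicate 4 lying within WT. *Rps4x* had a log2 fold change of -0.50 (adjusted p = 0.166). With the lymphocyte marker score the median was -0.14. The score of this list was highest in KO replicate 4 among KO libraries, as was that of lymphocytes, and the part of these cells in the result was not tested.

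Other cell types were compared through their markers. Blood endothelium, mural cell and extracellular matrix lists had medians of 0.54, 0.91 and 0.62, and -0.17, -0.05 and 0.02 with the lymphocyte marker score. For macrophages, 18 of 20 markers were lower on average in KO, with a median of -0.35 that was -0.37 with the score. Interferon response genes had a median of -0.60, with 7 of 18 at an unadjusted p under 0.05 and lower in KO (11.5% of all genes). Cell cycle genes had a median of -0.69, and 0.14 with the score. Skin and mammary epithelium, of which 1 of 13 markers passed the filter, and red blood cell markers had medians of 0.10 and -0.53. In the epithelium list KO replicate 4 stood apart from both genotypes, with a score of -0.53 against -2.70 to -2.12 in the other libraries. The summed CPM of that list reached 18.7 in KO and at most 3.14 in WT libraries. None of these lists had a called member with all 8 libraries.

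**Figure D5:**
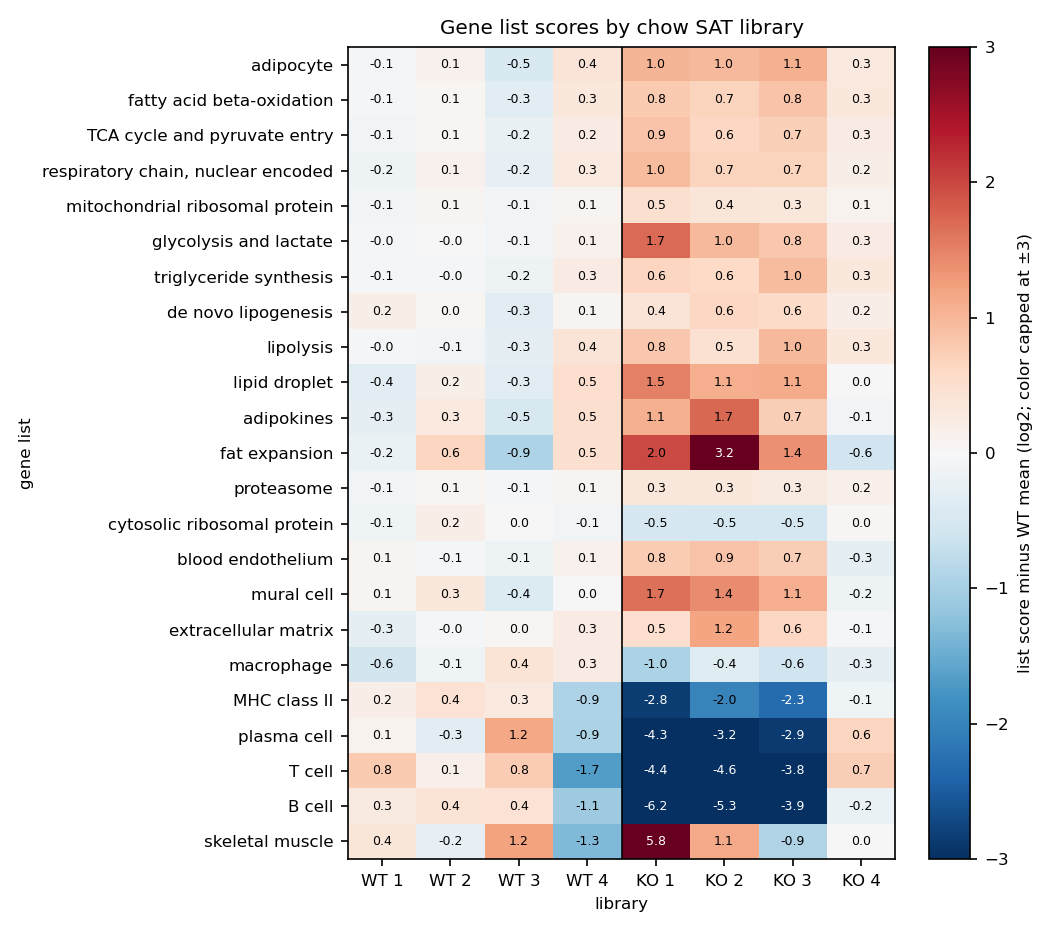
Each cell is the score of a gene list (mean log2 CPM) in 1 chow SAT library minus the mean of the 4 WT libraries, with color capped at 3. KO replicates 1 to 3 have higher scores of metabolic lists and lower scores of B, T and plasma cells than WT, and KO replicate 4 lies closer to the WT mean than the 3 others in most lists.

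The male SAT libraries on HFD are a separate set of animals. There 142 of 16268 genes (0.873%) were called, 99 higher (0.609%) and 43 lower (0.264%) in KO, a count that was 0 to 82 without any 1 library (0, 6, 0 and 34 without KO replicates 1 to 4, and 2, 82, 3 and 4 without WT replicates 1 to 4). The titles of KO replicate 1 and WT replicate 1 on HFD carry another run or lane suffix than those of the other HFD libraries of male SAT. Its part in these counts was not tested. Of the 92 called higher there and tested on chow, 79 (85.9%) had a positive log2 fold change in chow SAT, with a median of 0.50. Of the 42 called lower there, 24 (57.1%) were negative on chow, and of all genes 60.4% had the same sign in both. On chow, 31 of these 134 genes (23.1%) did not overlap in the same direction, against 10.4% of all genes in either direction. In turn, of 949 genes above WT in every KO library on chow, 74% were positive on HFD, where 47.1% of all genes were. The same genes were positive in 63.3% in chow VAT, where 52.8% of all genes were, and in 55.3% in SAT of females on HFD, where 52.8% of all genes were. Of the genes below WT in every KO library on chow, 71.6% were negative in males on HFD, 53.6% in chow VAT and 38.2% in SAT of females. Over all genes, 51.5% had the same sign in chow VAT as in chow SAT, and 38.6% in SAT of females. In chow VAT 2 of 16211 genes (0.0123%) and in female SAT 1 of 16665 genes (0.006%) were called. Lymphocyte scores also varied, from -0.03 to 0.42 in KO and from -0.18 to 3.75 in WT males on HFD, and from -0.15 to 4.72 in KO and from -0.99 to 0.09 in WT females.

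The metabolic lists had smaller fold changes in the other groups. On HFD in male SAT the medians were 0.24 for fatty acid oxidation, 0.22 for the TCA cycle, 0.29 for the respiratory chain and 0.22 for the proteasome. In chow VAT they were -0.10, -0.20, 0.21 and 0.16, and in female SAT 0.04, -0.01, -0.04 and 0.01. Fatty acid oxidation and the TCA cycle thus had positive medians in male SAT on both diets and negative medians in VAT.

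Differences of the fold change between KO and WT were tested as interactions. Between chow and HFD in male SAT, 3 of 17292 genes (0.0173%) were called, *Gm28438*, *Aldh3b2* and *Myef2*. Without chow KO replicate 4 the count was 5142. Without chow WT replicate 3 or HFD WT replicate 4 it was 0, without HFD KO replicate 1 or 4 or HFD WT replicate 1 it was 1, and without chow WT replicate 4 it was 6. Between SAT and VAT on chow, 2 of 17442 genes (0.0115%) were called, the small RNA genes *Rny3* and *Snord15a*, which differed by -2.31 (SE 0.33) and -3.47 (SE 0.53), with adjusted p = 0.0787 and 0.0881. *Snord15a*, a guide RNA of ribosomal RNA modification, was lower in every KO library of chow SAT (6.04, 2.33, 7.26 and 8.84 CPM) than in WT (21.3, 15.5, 13.9 and 14.1 CPM), and its log2 fold change in VAT was 2.08. For *Rny3*, a Y RNA, the values were 0.22 in SAT and 2.54 in VAT. Without chow SAT KO replicate 4 the count was 3370, without chow SAT KO replicate 2 or 3 it was 1, without chow VAT WT replicate 4 it was 3, and without any 1 of the other libraries it was 0.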

How the data were processed

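RNA from fat and liver of *Fam13a* KO and WT mice was sequenced, and the authors deposited raw read counts per gene in 1 table of 48795 genes for 62 libraries. The submitters' processing notes name STAR 2.5.3a and mm10. The counts were used as deposited, which keeps ribosomal RNA in the library size. Gene names came from GENCODE M21 (GRCm38) and matched 48435 genes.

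Counts were converted to CPM with TMM scaling, and genes were filtered with filterByExpr by genotype. KO and WT were compared in the 8 chow SAT libraries with edgeR 4.0.16 in R 4.3.3 (quasi-likelihood test, no covariate, Benjamini-Hochberg adjustment, FDR of 10%), and KO effects between diets or depots with interaction terms. Fold changes are log2, KO over WT. A list score is the mean log2 CPM, with a prior count of 2, of all its members in the table, whereas medians and counts of a list cover its tested members. DESeq2 1.42.0, limma 3.58.1 and sva 3.50.0 served as alternatives, and the fits were tested on simulated data with 200 changed genes. Depth was 9100628 to 26209382 counts a library, and intervals cover counting error only. The study also used technical covariates that were not used here.

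The lists and tests were chosen with earlier results of these data known. By rule, the text names *Fam13a*, called genes whose libraries do not overlap, the 2 most abundant members of a list, the genes the study names, ribosomal RNA loci, the leading genes of the covariate and interaction fits and defining markers of the lymph node. Other genes were chosen after their values were seen, and some genes that the rule names are not reported here.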

Additional observations from a re-analysis of the deposited data

Results flagged for a closer look

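The largest and smallest of 4 libraries were set against the other 3 with Dixon's test for 120 measures in each genotype, and chance passes this test in about 1 in 20 groups. In the KO group the library that stood apart was mostly KO replicate 4. Its scores were 8.67 for adipocyte, 4.93 for T cell, 4.04 for dendritic cell, 5.23 for blood endothelium, -0.53 for skin and mammary epithelium and 6.26 for cytosolic ribosomal protein markers (mean log2 CPM). Its CPM stood apart for *Acads* (50.5), *Lipe* (613), *Rpl4* (436), *Rps4x* (328), *Ighd* (139.9), *Il7r* (61.9) and *Cd3e* (17.1), in each case on the side of the WT libraries. KO replicate 1 stood apart for the muscle genes *Myh4* (12548 CPM) and *Acta1* (2498 CPM), for *Aldoa* (2109 CPM), *Cox7a1* (15.1 CPM) and *CT010467.1* (224775 CPM), and KO replicate 3 for *Gys2* (24.4 CPM).

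In the WT group, replicate 4 had a B cell score of 5.11, a dendritic cell score of 2.71, an MHC class II score of 5.73 and a score of the *Fam13* family of 5.81, and gave 72.7 CPM for *Psmd1* and 2337 CPM for *Acsl1*. WT replicate 3 had a score of the ribosomal RNA loci of 6.50, WT replicate 1 gave 933 CPM for *Fasn* and WT replicate 2 gave 10.02 CPM for *Rny3*.

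The log2 fold change between KO and WT differed between chow and HFD in male SAT for *Gm28438* (5.62, adjusted p = 0.0366), *Aldh3b2* (2.22, adjusted p = 0.0366) and *Myef2* (-0.74, adjusted p = 0.0846), by the interaction term in edgeR. Between SAT and VAT on chow it differed for *Rny3* (-2.31, adjusted p = 0.0787) and *Snord15a* (-3.47, adjusted p = 0.0881). In liver, which enters none of the comparisons, *Gm28438* measured at least 1.80 CPM in KO males on chow, above the highest WT library of any group (0.283 CPM). In SAT of KO females on HFD *Gm28438* measured at least 1.26 CPM, and there are no libraries of females on chow to set beside them.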

How the results depend on the processing

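The 3 genes called in chow SAT became 19 without a low-count filter, 3054 with DESeq2, 1293 with a likelihood ratio test, 1 with limma-voom, 5378 with 16 male SAT libraries, 3982 with 32 male SAT and VAT libraries and 9304 with 16 male SAT libraries without KO replicate 4. They became 1 with the lymphocyte marker score, 1 with the adipocyte marker score, 9 with 16 male SAT libraries and the lymphocyte score, and 0 with the ribosomal RNA share, with both this share and the lymphocyte score, or with 1 surrogate variable. Leaving out 1 library gave 0 to 7122 genes in chow SAT, 0 to 82 in SAT of HFD males, 0 to 2 in chow VAT, 0 to 19 in SAT of HFD females, 0 to 5142 for the diet and 0 to 3370 for the depot difference. With DESeq2 these other counts were 1016 (142 with edgeR), 90 (2), 28 (1), 957 (3) and 226 (2). At least 10 counts in every library left 0 in chow VAT, 0 in females and 0 for the depot difference. DESeq2 size factors gave 5 for the diet difference, and the lymphocyte score 0 for the depot difference. The causes were not tested.

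With the lymphocyte score the log2 fold change turned to -0.027 for *Sdha*, -0.41 for *Klf14*, -0.67 for *Vegfa*, 0.19 for *Il7r*, 0.13 for *Cd3e*, -0.36 for *Myh4*, -1.89 for *Ucp1* and -0.44 for *Acta1*. With the ribosomal RNA share added it was -0.48 for *Klf14*, -0.68 for *Vegfa*, 0.31 for *Cd3e*, -0.24 for *Myh4*, -0.25 for *Acta1*, -0.35 for *Ucp1* and 1.75 for *CT010467.1*, and with that share alone 1.54 for *CT010467.1*. With 16 libraries and the lymphocyte score it was -0.52 for *Vegfa*, 0.092 for *Cd3e* and -0.43 for *Myh4*. With the adipocyte score it was -0.13 for *Lpin1*, -0.16 for *Lipe*, -0.10 for *Acsl1*, -0.22 for *Sdha*, -2.96 for *Ucp1*, -0.088 for *Scd1*, -1.01 for *Klf14*, -1.05 for *Vegfa*, 0.31 for *Ighm*, 1.14 for *Il7r* and 1.30 for *Cd3e*. Leaving out 1 library gave -0.16 to 0.28 for *Vegfa*, negative without KO replicate 3 or WT replicate 1 or 3, and -0.0058 to 0.34 for *Rny3*, negative without KO replicate 3. None of these genes was called with the 8 libraries. *Il7r* and *Cd3e* are themselves part of the lymphocyte score, *Lipe* of the adipocyte score and *CT010467.1* of the ribosomal RNA share. Under a covariate that contains the gene, its fold change cannot be read as a KO effect.

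No paired analysis was possible because the labels give no replicate numbers, which here only name libraries in accession order. The smallest library held 6995666 counts outside ribosomal RNA, which limits the precision of genes with few reads.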

Other observations

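Thermogenic and beige fat genes had positive log2 fold changes in all 9 tested members, with a median of 1.46, and 2 (22.2%, against 6.08% of all genes) had every KO library above every WT library. The median was -0.21 with the lymphocyte marker score, -0.48 with the adipocyte marker score and 1.02 without KO replicate 1. The genes above WT were *Otop1*, a proton channel of brown fat, and *Cox7a1*. *Otop1* measured 7.73, 5.88, 8.49 and 1.92 CPM in KO and 1.29, 0.983, 0.854 and 1.02 CPM in WT libraries. *Ucp1*, the uncoupling protein of brown fat, measured 18.2, 0.592, 5.196 and 0.151 CPM in KO and 0.234, 1.47, 0.128 and 2.25 CPM in WT libraries. Neither gene was called (adjusted p = 0.146 and 0.248). *Slc2a4*, the insulin-regulated glucose transporter, had every KO library above WT (124, 59.3, 110.2 and 57.6 CPM in KO, 51.1, 34.4, 33.1 and 42.9 CPM in WT), and among genes of lipogenesis this was so for *Srebf1*, *Me1* and *Pgd*, with log2 fold changes of 0.85, 0.70 and 1.09. Of 20 genes of branched-chain amino acid breakdown, 19 were positive, with a median of 0.48, which was 0.12 with the lymphocyte and -0.15 with the adipocyte marker score.

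KO libraries of SAT, VAT and liver from males on chow and of SAT and VAT from females on HFD had 0 counts on *mt-Nd3* in every library, and these are the groups in which *Gm28438* was above 1 CPM in every library. The other groups had few reads on both, for example 9 on *Gm28438* and 16 on *mt-Nd3* in SAT of KO males on HFD. In VAT and liver of these males *mt-Nd3* had 12 and 8 counts over 4 libraries each. In the WT groups it had between 4 and 11 counts over 3 or 4 libraries.

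Over genes, the Spearman correlation between the log2 fold change and transcript length was 0.0138 in chow SAT, -0.145 in SAT of HFD males and -0.0949 in chow VAT, a description over genes that share libraries.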
